A study of Mus musculus with 2 samples.

Results

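The microRNA genes described here are Mir335 at Mest, Mir483 at Igf2, Mir298 and Mir296 at the Gnas locus, and Mir675 at H19. They are microRNA genes at imprinted growth loci outside chromosome 12, and all 5 were found by symbol among the 2202 microRNA genes of the tables. They were counted in small RNA (size range under 30 nt) of the gastrocnemius, the large calf muscle, taken from male B6CASTF1/J mice aged 14 days. These mice are hybrids of C57BL/6 and CAST/EiJ. There is 1 group of 2 biological replicates with 1 library each, and no other tissue, age, sex or treatment. The labels mention several males per sample and give both samples the same donor identifier, and leave it unstated if a sample was pooled. The spread between the replicates may therefore be partly technical.

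An imprinted gene is transcribed mainly from the copy inherited from 1 parent. Mest, which encodes an enzyme of the hydrolase family, and Igf2, which encodes a fetal growth factor, are transcribed from the paternal copy. H19, a long noncoding RNA that neighbours Igf2, is transcribed from the maternal copy. Nespas, an RNA antisense to the Gnas transcripts, is paternal, and Mir296 and Mir298 are known in the mouse to come from the paternal copy of that locus. A microRNA is cut from a hairpin in a longer transcript, and either arm of the hairpin can become the mature strand, which pairs with messenger RNAs mainly through its seed, bases 2 to 8. The parent of origin is background here and was not measured, because the counts are not divided by allele.

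The hairpins are shown because each is the unit that was counted. They are RefSeq sequences on GRCm38.p6, the same assembly as mm10, written 5′ to 3′ with the mature arms in capitals, and all 5 have the interval that the gene annotation gives.
Mir335: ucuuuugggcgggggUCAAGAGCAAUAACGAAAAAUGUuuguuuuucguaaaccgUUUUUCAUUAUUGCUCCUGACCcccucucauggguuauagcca
Mir483: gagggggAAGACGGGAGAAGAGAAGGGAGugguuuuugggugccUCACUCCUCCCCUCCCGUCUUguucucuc
Mir298: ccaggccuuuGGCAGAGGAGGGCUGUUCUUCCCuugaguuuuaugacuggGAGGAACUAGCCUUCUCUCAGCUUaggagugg
Mir296: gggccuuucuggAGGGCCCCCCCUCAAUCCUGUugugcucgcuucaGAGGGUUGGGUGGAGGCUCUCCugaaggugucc
Mir675: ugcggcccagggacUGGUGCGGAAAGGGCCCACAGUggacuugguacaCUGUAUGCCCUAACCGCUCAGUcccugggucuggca

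The mature arms are shown with the seed in capitals, because the seed decides which microRNAs count as 1 family.
miR-335-5p: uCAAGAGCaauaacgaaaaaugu
miR-335-3p: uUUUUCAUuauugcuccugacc
miR-483-5p: aAGACGGGagaagagaagggag
miR-483-3p: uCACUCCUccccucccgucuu
miR-298-5p: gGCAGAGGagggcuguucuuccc
miR-298-3p: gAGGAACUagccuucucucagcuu
miR-296-5p: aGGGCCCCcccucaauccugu
miR-296-3p: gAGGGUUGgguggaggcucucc
miR-675-5p: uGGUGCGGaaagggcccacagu
miR-675-3p: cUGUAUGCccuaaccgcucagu

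None of the 10 arms shared its seed with an arm of another gene among the 1738 mature sequences of the table, where 68.0% of arms have a seed found in 1 gene. The longest run of bases common to arms of different genes here was 7 nt, between miR-296-5p and miR-675-5p. It covers bases 1 to 7 of miR-296-5p, with 6 of the 7 bases of that seed, and lies outside the seed of miR-675-5p. These microRNAs are grouped by their imprinted loci and not by sequence. No 18-base stretch of any arm was found in another hairpin of the table. In the annotated transcripts of other genes, on either strand, both arms of Mir675 occur in H19, the RNA that carries the hairpin, and no arm of the other 4 genes occurs. A read with more than 1 mapping place was not counted for any gene, and the genome outside annotated transcripts was not searched.

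The 5 genes lie at 3 loci on 3 chromosomes (mm10). Mir335 (ENSMUSG00000065501.1) is at chromosome 6, 30741299 to 30741396, plus strand. It is intronic in all 7 Mest transcripts that span it, in the intron from 30740825 to 30742140. Mir483 (ENSMUSG00000070140.1) is at chromosome 7, 142654924 to 142654996, minus strand. It lies in an intron of Igf2 (142654449 to 142655653), which the overlapping gene model Gm49394 also has. Mir675 (ENSMUSG00000076275.1) is at chromosome 7, 142577064 to 142577147, minus strand, and 77776 bases from Mir483. It is exonic in 3 of the 4 H19 transcripts that span it, in exon 1 (142576829 to 142578143) of the longest of these exons, and intronic in the other.

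Mir298 (ENSMUSG00000065410.1, chromosome 2, 174267504 to 174267585) and Mir296 (ENSMUSG00000065521.1, chromosome 2, 174267047 to 174267125) are on the minus strand with 378 bases between them. No annotated gene other than the microRNA genes themselves overlaps them. The annotated end of Nespas, on the same strand, is 13651 bases from Mir298 and 14111 bases from Mir296. None of the 5 hairpins overlaps a microRNA gene on the opposite strand.

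The libraries held 2743657 counts (replicate 1) and 2211254 counts (replicate 2) under microRNA genes, own strand only. Reads that mapped to several loci made up 44.0% and 52.1% of all reads and were counted for no gene. Genes that share mature bases with other genes can therefore be too low in level, rank and share. How far this moved the ranks and shares given here was not tested. CPM, the count per 1000000 assigned counts, is the level used throughout, and ± is the SD over the 2 libraries (n = 2). Intervals cover counting error only and take each read as independent. Reads copied by PCR are not independent molecules, so the intervals may be too narrow. All 9 skeletal muscle markers had a count, led by Mir206 at 68288 and 67909 CPM in replicates 1 and 2. The endothelial Mir126a stood at 98087 and 80432 CPM. Of 7 neuronal markers, Mir124a-1, Mir124a-2, Mir124a-3, Mir9-1 and Mir9-2 had no count. These are numbered copies, whose reads may map to several loci and so be counted for no gene. Their lack of counts therefore does not show that neurons were absent. Summed levels of the other lists in replicates 1 and 2 were 4780 and 3750 CPM for connective tissue, 648 and 678 CPM for leukocytes, 384 and 571 CPM for red blood cells, 108 and 132 CPM for liver, 14.2 and 48.4 CPM for neurons and 13.5 and 13.6 CPM for pancreas. The connective tissue list also holds numbered copies, Mir199a-1 and Mir199a-2, so its sum may be too low. In bulk tissue, fewer cells of a type and less RNA per cell cannot be told apart.

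Together the 5 genes held 2.16% of assigned counts in replicate 1 (59275 counts, 95% Wilson interval 2.14 to 2.18) and 2.37% in replicate 2 (52501 counts, 2.35 to 2.39). Nearly all of this came from the paternally expressed loci. Mir335 alone made up 77.9% ± 2.41 of the counts of the 5 genes, Mir483 14.4% ± 2.27, Mir298 7.05% ± 0.0824, Mir296 0.527% ± 0.0282 and Mir675 0.164% ± 0.0302. All 5 genes reached 10 CPM in both libraries, a level that 258 of the 2202 genes (11.7%) reached. At 100 CPM in both libraries, 4 of the 5 genes remained, all but Mir675.

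**Figure D1:**
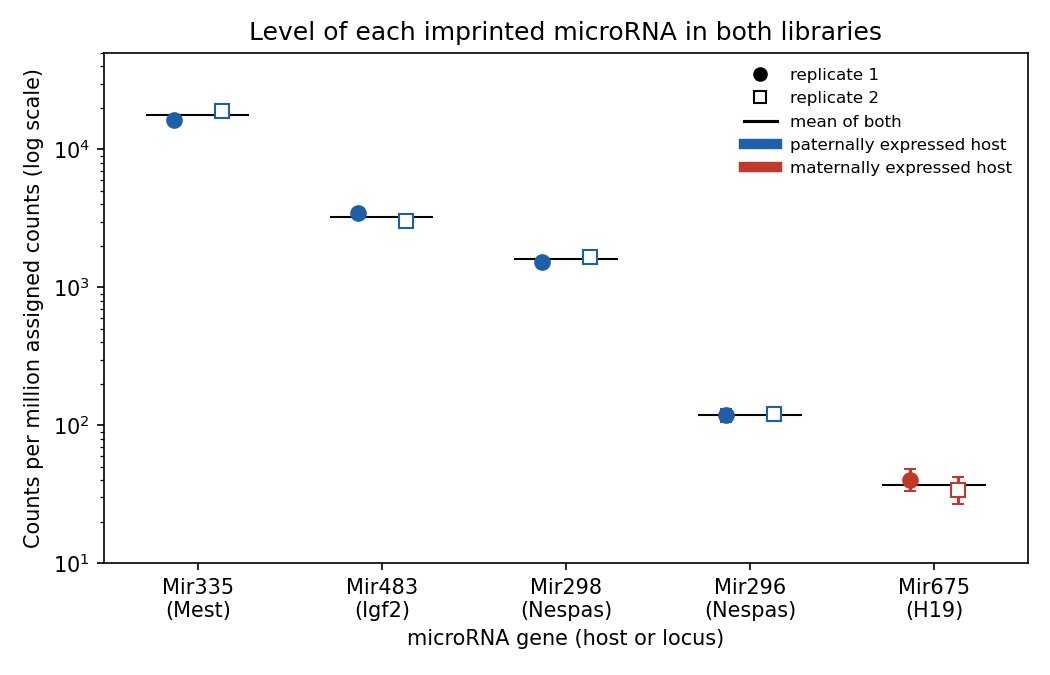
Level of each gene in both libraries, in CPM on a log axis, with 95% Wilson intervals for counting error (filled circles, replicate 1; open squares, replicate 2; line, mean). Mean levels run from 17671 CPM for Mir335 to 37.0 CPM for Mir675, and no gene's lowest library falls below the highest library of the next.

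Mir335, the intronic microRNA of Mest, is known from human breast cancer cells as a suppressor of metastasis. It had 45137 counts in replicate 1 and 41770 counts in replicate 2, which is 16451 CPM (95% Wilson interval 16302 to 16603) and 18889.7 CPM (18711 to 19070). Its mean was 17671 CPM ± 1724. Over reads with a single mapping place, it ranked 16th in replicate 1 and 14th in replicate 2 among all genes. It was 6th among the 287 intronic microRNA genes with a count. The 3 genes closest to it in level over the 2 libraries were Mir26b in an intron of Ctdsp1, Mirlet7d and Mirlet7b. Closeness was measured as the distance in log2(CPM + 1), which was 0.0783, 0.219 and 0.220 for these genes. Replicate 2 was the higher library for Mir335 and for each of these 3 genes. Choosing genes by their distance over both libraries favours such a shared direction, so it is no separate finding. Mir26b stood at 17291 CPM in the first library and 19304 CPM in the second.

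Mir483, the intronic microRNA of Igf2, is known in human tumours such as Wilms tumour to be raised together with its host. It had 9488 counts in replicate 1 and 6717 counts in replicate 2, or 3458 CPM (3389 to 3528) and 3038 CPM (2966 to 3111). Its mean was 3248 CPM ± 297, rank 40 in replicate 1 and rank 46 in replicate 2. Its level was the 15th highest among the intronic genes with a count. Here replicate 1 was the higher library, opposite to Mir335. The closest genes were Mir130a (distance 0.0412), Mir30e in an intron of Nfyc (0.140) and Mir540 on chromosome 12 (0.145), with Mir130a at 3506 and 3115 CPM in replicates 1 and 2.

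Mir298 and Mir296, the pair at the Gnas locus, differed far more from each other than between libraries. Mir298, which is known to target the messenger RNA of the beta-secretase Bace1, had 4216 and 3673 counts, or 1537 CPM in replicate 1 (1491 to 1584) and 1661 CPM in replicate 2 (1608 to 1716). Mir296, known in human endothelial cells to act on growth factor receptor turnover, had 324 and 266 counts, or 118 CPM in replicate 1 (106 to 132) and 120.3 CPM in replicate 2 (107 to 136). The means were 1599 CPM ± 88.0 for Mir298 and 119 CPM ± 1.56 for Mir296. Mir298 over Mir296 was 13.01 in replicate 1 (exact 95% interval 11.6 to 14.6) and 13.8 in replicate 2 (12.2 to 15.7), so the within-library intervals overlap. Ranks were 61 and 60 for Mir298, and 174 and 171 for Mir296.

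Among the 160 counted microRNA genes outside annotated genes, Mir298 was the 22nd highest and Mir296 the 60th. The genes closest to Mir298 in level were Mir676 in an intron of Eda (distance 0.106), Mir93 in Mcm7 (0.171) and Mir140 in Wwp2 (0.256). Those closest to Mir296 were Mir339 (0.0859), Mir1981 (0.123) and Mir29c (0.161). None of these 6 genes lies on the list of imprinted hosts used below.

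Mir675, the exonic microRNA of H19, is known in mice to restrain placental growth and to promote the differentiation of myoblasts. It was the lowest of the 5, with 110 counts in replicate 1 and 75 counts in replicate 2. These are 40.1 CPM (33.3 to 48.3) and 33.9 CPM (27.1 to 42.5), a mean of 37.0 CPM ± 4.37. The libraries' counting intervals overlap. A count of 0 allows up to 3 counts, which is 1.09 CPM at the depth of replicate 1 and 1.36 CPM at that of replicate 2, so Mir675 was well above that limit in both. It ranked 208 and 220, and 59th among the 182 exonic microRNA genes with a count. The closest genes were Mir24-1 (0.207), Mir199b (0.209) and Mir1843b (0.213). Mir24-1 is a numbered copy, so its level may be too low because reads with several mapping places were left out. Whether Mir199b and Mir1843b lost reads in this way was not tested. Because Mir675 lies inside an exon of H19, a short fragment of H19 RNA over the hairpin would be counted with it, and this was not tested.

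**Figure D2:**
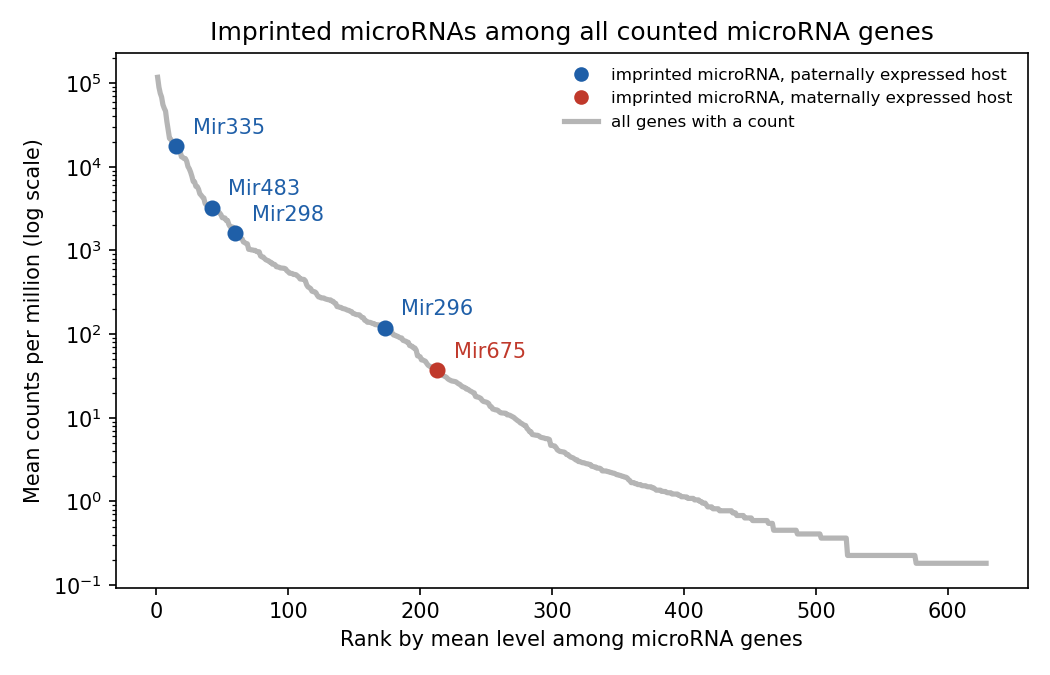
Mean level of the 629 genes with a count, in CPM on a log axis, against rank. Mir335 stands at rank 15, Mir483 at 42, Mir298 at 60, Mir296 at 173 and Mir675 at 213.

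Each gene had reads on its own strand only, with 1 exception. On the opposite strand Mir335, Mir483, Mir298 and Mir296 had 0 counts in both libraries, and Mir675 had 0 in replicate 1 and 1 in replicate 2.

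The comparison of the parental groups sets the 4 genes of paternally expressed hosts against the 1 gene of a maternally expressed host. The 4 genes summed to 59165 counts (21564 CPM) in replicate 1 and 52426 counts (23709 CPM) in replicate 2, against 110 counts (40.1 CPM) and 75 counts (33.9 CPM) for Mir675. The sum was 538 times Mir675 in replicate 1 (exact 95% interval 446 to 655) and 699 times in replicate 2 (558 to 889), a mean of 618 ± 114. Without Mir335 the ratio was 128 in replicate 1 (106 to 155) and 142 in replicate 2 (113 to 181). The libraries did not overlap between the groups for any of the 4 genes. That is not particular to them, since Mir675 ranked 208 in replicate 1 and 220 in replicate 2. At the least, all 178 genes (8.08% of 2202) at 100 CPM in both libraries, these 4 included, lay above Mir675 in the same way. No test was made over libraries, since 2 values against 2 cannot give a two-sided exact permutation p below 0.333. With 1 gene on the maternal side, the contrast is also that of Mir675 with each other gene.

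Gene by gene, Mir335 was 410 times Mir675 in replicate 1 (340.4 to 499) and 557 times in replicate 2 (444 to 708). Mir483, its neighbour at the same locus, was 86.3 times Mir675 in replicate 1 (71.5 to 105) and 89.6 times in replicate 2 (71.3 to 114), a mean of 87.9 ± 2.34. Mir298 was 38.3 times (31.7 to 46.7) and 49.0 times (39.0 to 62.4) Mir675. Mir296 was the nearest, at 2.95 times Mir675 in replicate 1 (2.37 to 3.69) and 3.55 times in replicate 2 (2.74 to 4.65). The counts were not divided by length because a small RNA read spans a mature arm. Per base of the hairpin, which is 73 to 98 nt long, the order of the 5 genes was the same and the ratio of the summed paternal group to Mir675 was 564 ± 99.7.

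**Figure D3:**
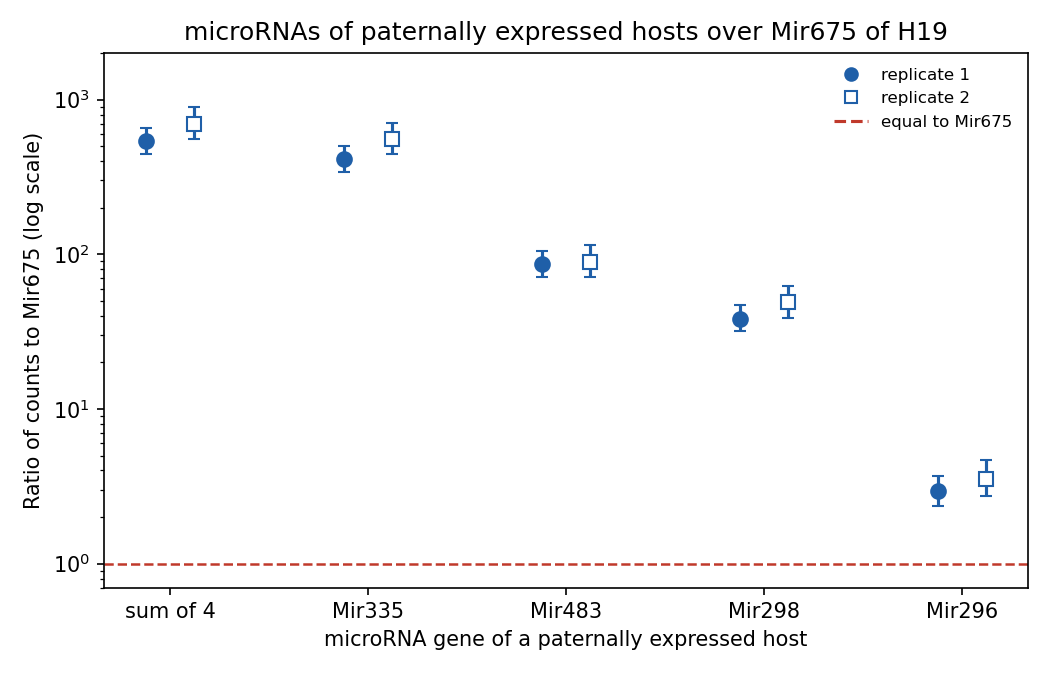
Counts of the genes of paternally expressed hosts over those of Mir675 in each library, on a log axis, with exact 95% intervals for counting error. Every ratio lies above 1, from 2.95 for Mir296 in replicate 1 to 557 for Mir335 in replicate 2, with the sum of the 4 genes at 538 and 699.

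The ratios of Mir335 to Mir483 and of Mir483 to Mir298, all paternally expressed, differed between libraries beyond the counting error of independent reads. Mir335 was 4.76 times Mir483 in replicate 1 (4.65 to 4.86) and 6.22 times in replicate 2 (6.06 to 6.38), a mean of 5.49 ± 1.03, and these intervals do not overlap. The intervals do not cover the spread between libraries, and edgeR's exact test called neither Mir335 nor Mir483 (adjusted p = 0.990 each). That test takes its spread from the same libraries that it compares, so the lack of a call says little. Mir483 was 2.25 times Mir298 in replicate 1 (2.17 to 2.33) and 1.83 times in replicate 2 (1.76 to 1.90). The ratios within a locus, Mir298 over Mir296 and Mir483 over Mir675, had overlapping intervals. They rest on the low counts of Mir296 and Mir675, whose intervals are wide.

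The difference between the libraries was then set against that of all genes. Counts were compared gene by gene with a two-sided exact binomial test, given library sizes scaled by edgeR's trimmed mean of M-values, with Benjamini-Hochberg adjustment over the 258 genes at 10 CPM in both libraries. Such a test sets 1 library against the other and allows for counting error alone. Past adjusted p of 0.05 were 3 of the 5 genes, and 51.9% of all genes tested were past it, 27.9% higher and 24% lower in replicate 1. The count among the 5 genes is near that background.

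Log2 ratios are replicate 1 minus replicate 2 on log2(CPM + 1) with scaled library sizes. Mir335 was lower in replicate 1, at -0.18 on the log2 scale (exact binomial test, adjusted p = 3.09e-75). Mir483 was higher in replicate 1, at 0.20 (exact binomial test, adjusted p = 3.48e-18). Mir298 was lower in replicate 1, at -0.09 (exact binomial test, adjusted p = 0.00883), a call that was lost with every counted gene admitted (adjusted p = 0.171). Mir675 stood at 0.25 (adjusted p = 0.343) and Mir296 at -0.01 (adjusted p = 0.990), both short of the threshold.

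None of these differences was large. All 5 genes lay within 1.5-fold between the libraries, as did 245 of the 258 genes tested, and 1.16% of the genes tested both passed the exact binomial test and were 2-fold or more apart. The median absolute log2 ratio was 0.182 over the 5 genes and 0.180 over all genes tested. Among other genes within 2-fold of its level, that median was 0.111 for Mir335 and 0.147 for Mir483, both smaller than the gene's own value. It was 0.142 for Mir298, 0.171 for Mir296 and 0.283 for Mir675, each larger than the gene's own value. When the common spread between the libraries is allowed for, with a biological coefficient of variation of 12.6%, edgeR's exact test called 0 of the 5 genes, with 0 at an unadjusted p under 0.05. Over all genes it called 3, which is 1.16%, with 17 at an unadjusted p under 0.05. Its spread is estimated over all genes from the same libraries that it compares, so their differences enter it and few calls can be made. The share of genes called by the binomial test was larger at higher levels. Among other genes within 2-fold of its level, the binomial test called 88.2% for Mir335, 75.9% for Mir483, 69.2% for Mir298, 35.5% for Mir296 and 28.6% for Mir675.

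**Figure D4:**
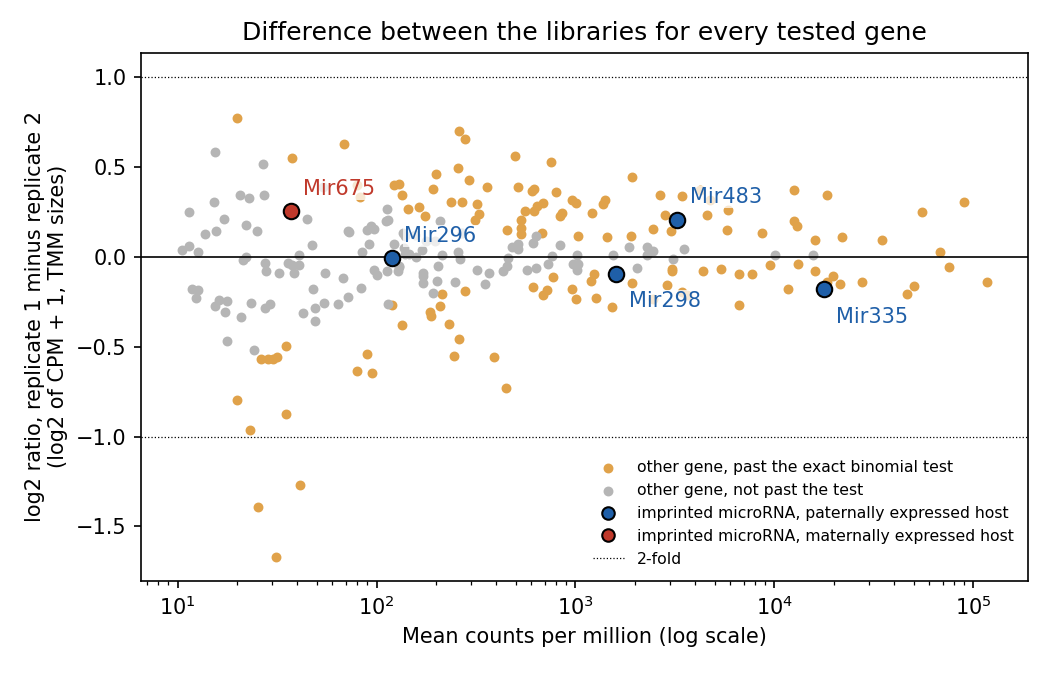
Log2 ratio between the libraries (replicate 1 minus replicate 2) against mean level on a log axis for the 258 tested genes; orange genes passed the exact binomial test, and dotted lines mark 2-fold. Mir335 at -0.18, Mir298 at -0.09 and Mir296 at -0.01 lie below the line, Mir483 at 0.20 and Mir675 at 0.25 above it.

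The 5 genes were also set beside the microRNA genes within the bodies of other imprinted genes, from a list of 64 imprinted mouse genes of which 62 were found in the annotation. Overlap was taken on either strand. A listed gene, called a host here, therefore need not be the transcript that carries the microRNA. In all, 155 microRNA genes overlapped such a host, 39 of them were counted at all, and 32 were at 10 CPM or more in each library, of which 10 were higher and 6 lower in replicate 1 by the exact binomial test, where 27.9% of all genes tested were higher and 24% lower. Their median log2 ratio was 0.07, against 0.01 over all genes tested. Outside chromosome 12, 126 genes overlapped such a host, 15 were counted, and they held 2.06% of all assigned counts in replicate 1 and 2.26% in replicate 2. Mir298 and Mir296 are not among them, because no annotated gene overlaps them.

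Mir335, Mir483 and Mir675 are the only microRNA genes within Mest, Igf2 and H19. Of the other hosts outside chromosome 12, Sfmbt2, a paternally expressed gene of the placenta that carries a large repeated array, held 119 microRNA genes, of which 9 had a count. The highest of them, Mir467e, had 212 and 214 CPM in replicates 1 and 2, and the array summed to 564 and 567 CPM. Reads that map to several copies of the array were counted for no gene. Its number of counted genes and its sum may therefore be too low. Mir3099 within the paternally expressed Usp29 had 21.1 and 25.8 CPM. Mir653 within Calcr had 44 counts (16.0 CPM) in replicate 1 and 15 counts (6.78 CPM) in replicate 2, and the 1 gene within Blcap, Gm23134, had none. By counts of singly mapped reads, Mir335 was the highest of the microRNA genes within these hosts outside chromosome 12, and Mir483 the next.

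On chromosome 12, the microRNAs of the Dlk1-Dio3 locus come from the maternal copy. The highest microRNA gene overlapping each of 5 listed genes was taken, and 4 of these 5 were higher than the maternal Mir675 in both libraries. Taking the highest of up to 15 microRNA genes favours such an outcome, so it is no measure of the maternal microRNAs as a group. By mean level, 66.1% of the 629 genes with a count were below Mir675. The highest gene overlapping Rtl1, Mir127, had 73627 and 77393 CPM in replicates 1 and 2. Mir127 lies on the strand opposite to Rtl1, and on its own strand no annotated gene other than microRNA genes overlaps it. The highest gene within Mirg, Mir541, had 9237 and 9671 CPM, that within Rian, Mir341, had 1305 and 1116 CPM, and that within Meg3, Mir770, had 335 and 563 CPM. Mir1247 within Dio3os had 4 and 6 counts, or 1.46 and 2.71 CPM. In all, 3 microRNA genes of the stretch around Meg3, Rian and Mirg had a higher mean level than Mir335, namely Mir127, Mir411 (59680 and 50909 CPM) and Mir379 (22559 and 21143 CPM).

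The hairpins differ in base composition and predicted stability. The share of G and C was 42.9% in Mir335, 58.9% in Mir483, 53.7% in Mir298, 63.3% in Mir296 and 63.1% in Mir675, against a median of 51.7% over 968 hairpins. The folding energy predicted with RNAfold, per 100 nt, was -45.2 kcal/mol for Mir335, -46.3 for Mir483, -52.1 for Mir298, -54.7 for Mir296 and -66.7 for Mir675, against a median of -40.5. The order of stability among the 5 is thus the reverse of the order of level. Mir675 folded more stably per base than 97.9% of the hairpins.

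Over the 520 hairpins with a count, which share the same 2 libraries, Spearman's rho of level with folding energy per 100 nt was -0.12, and it was -0.13 over the 220 hairpins at 10 CPM in both libraries. A negative rho means that more stable hairpins were slightly higher, so the order among the 5 genes is not that of all hairpins. With G and C content, rho was -0.21 over the 520 hairpins and -0.05 over the 220.

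**Figure D5:**
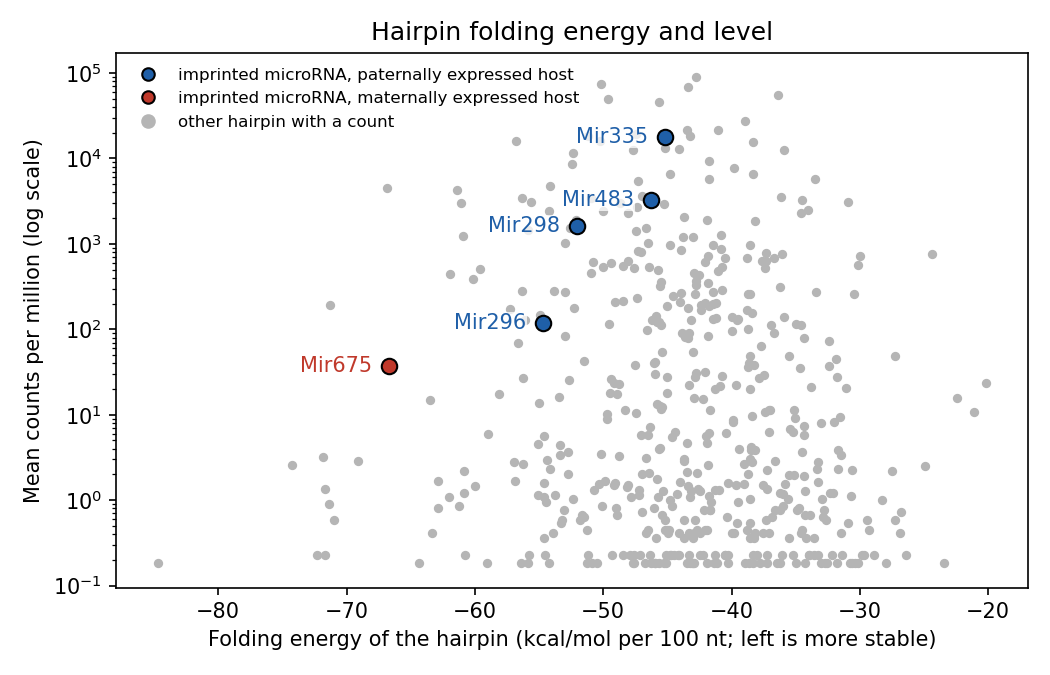
Mean level (CPM, log axis) against the predicted folding energy per 100 nt of hairpin, for hairpins with a count. The 5 genes run from Mir335 at -45.2 to Mir675 at -66.7 kcal/mol per 100 nt, while rho over all 520 hairpins is -0.12.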

How the data were processed

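The authors deposited raw counts of reads for every microRNA gene, 1 table per library, made on mm10 with the M21 annotation, per the labels and the files' own notes. Which aligner, counter and trimming they used is not given in the sources used here. Of 3 count columns in a table, that for the gene's own strand was used. The 4 lines that name no gene, 72.7% of reads in replicate 1 and 73.0% in replicate 2, stayed out of library sizes and tests.

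All 2202 identifiers were found in GENCODE vM21, the annotation of the same build. CPM, ratios, ranks and intervals (95% Wilson for shares, exact Clopper-Pearson for ratios) were computed here with Python 3.11.15, SciPy 1.17.1 and statsmodels 0.14.6. Library scaling and an alternative exact test used edgeR 4.0.16 in R 4.3.3, with an intercept-only dispersion, and DESeq2 1.42.0 gave alternative size factors. The binomial test was tested on simulated counts. Hairpins from RefSeq were matched by symbol (5 of 5) and folded with RNAfold 2.7.2.

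The genes and lists were chosen with earlier results of these data known. Named genes were the 5, the 3 nearest to each in level, the highest microRNA gene within each imprinted host, genes sharing a seed, and the muscle markers. Beside Mir206, the muscle markers had means of 611 CPM (Mir486), 277 CPM (Mir499), 246 CPM (Mir1a-2), 84.3 CPM (Mir208b), 26.2 CPM (Mir133b), 17.0 CPM (Mir133a-1), 12.2 CPM (Mir1a-1) and 1.82 CPM (Mir133a-2). The numbered copies among them, Mir1a-1, Mir1a-2, Mir133a-1 and Mir133a-2, may have lost reads that mapped to several loci. Their low values are therefore no measure of these microRNAs in the muscle.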

Additional observations from a re-analysis of the deposited data

How the results depend on the processing

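Of 121 recomputed values over 22 results, 90 were judged unchanged. They kept their direction and side of the threshold, or moved by no more than 1 SD. Counts of genes were judged unchanged within 1.5-fold, which takes in 2 of the 5 genes called in place of 3. Some of the 90 could not come out otherwise. Leaving out 1 of 2 libraries cannot move a mean by more than 1 SD. The number added to CPM before log2 does not enter the binomial test or change a sign. The share held by the 5 genes was 2.27% ± 0.151, and became 2.96% with either strand counted, 2.57% without the most abundant gene in the total and 0.615% of all reads, since each changes the total that the counts are divided by. These settings moved the CPM of each of the 5 genes by more than 1 SD and left their order. With edgeR's exact test 0 of the 5 genes passed in place of 3, and 3 of all genes in place of 134. That test adds the spread between the libraries, which is estimated from the same libraries that it compares. Under the other settings 2 or 3 of the 5 genes passed, or 3 of the 4 tested at 100 CPM in both libraries. The number of genes tested changed with the setting, and so did the share that passed. Over all genes, 118 of 178 passed at 100 CPM in both libraries and 114 of 244 with either strand counted. With every counted gene admitted 129 of 629 passed, and with other library sizes 133 and 135 of 258. The log2 ratio of Mir296, -0.01, was 0.0198 with every counted gene admitted, with an adjusted p of 1. Leaving out a replicate gave 2.16% to 2.37% for the share and 538 to 699 for the ratio of paternally to maternally expressed hosts. Chosen after seeing the data, counts per hairpin base moved Mir483 over Mir675 to 101. Depth limits Mir675 and Mir296 most. No paired analysis was possible because there is 1 group.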
